A study of Drosophila melanogaster with 9 samples.

Results

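The receptor tyrosine phosphatases of axons are 6 fly genes, Lar, Ptp10D, Ptp4E, Ptp52F, Ptp69D and Ptp99A, taken by name from a table of 16854 genes. The study sequenced RNA from 3 sorted cell populations of Drosophila melanogaster brains from which the optic lobes had been removed, in pupae (45 h APF, hours after puparium formation) and in adults. Kenyon cells (KC), the intrinsic neurons of the mushroom body, carried GFP. Olfactory projection neurons (PN), which bring odor signals from the antennal lobe to the mushroom body, carried tomato, and the double negative cells (DN) carried neither label. All 6 groups were pooled males and females of the same genotype, with GH146:Gal4 driving UAS:tomato over the balancer CyO and MB247:LexA driving LexAop:GFP over the balancer TM2. GH146 is active in most but not all projection neurons and in some other neurons, among them the GABAergic APL neuron of the mushroom body, and MB247 is weak in some classes of Kenyon cell. The series has 1 library per cell type at 45 h APF, labelled as pooled, and 2 per cell type in the adult. The values are FPKM (fragments per kilobase of transcript and per M mapped fragments), a measure per length that allows genes to be compared. Each adult column is the authors' mean of its replicates, so no value has a standard deviation. The stages also differ in sequencer and read length (NextSeq and 75 bases for pupae, HiSeq and 50 bases for adults), and these cannot be told apart from stage.

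Receptor tyrosine phosphatases span the membrane, carry cell adhesion domains outside and remove phosphate from tyrosines inside, so that they oppose tyrosine kinases at the growth cone. In fly embryos they act with partial redundancy in motor axon guidance and at the midline, and in the visual system Lar and Ptp69D act in the choice of target layer by photoreceptor axons. Ptp10D and Ptp69D are known from genetics to act in the bundling and midline behaviour of mushroom body axons. Lar, Ptp69D and Ptp99A have tandem phosphatase domains. Ptp10D, Ptp4E and Ptp52F have a single one, and Ptp10D and Ptp4E are close relatives. Known ligands are the heparan sulfate proteoglycans syndecan (Sdc) and Dally-like (dlp) for Lar, and Stranded at second (sas) for Ptp10D.

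The 6 genes lie on 5 chromosome arms and differ in size. In dm6 coordinates from Ensembl annotation release 115, Lar (FBgn0000464) spans 145.4 kb on the plus strand of 2L, from 19586623 to 19732069, with 7 transcripts and proteins of up to 2032 residues. Ptp99A (FBgn0004369) spans 109.5 kb on the plus strand of 3R, from 29377646 to 29487131, with 5 transcripts coding for 922 to 1397 residues. Both are mostly intron, with exons covering 7.11% and 8.35% of the span. Ptp10D (FBgn0004370; X, 11622015 to 11677338, plus strand) spans 55.3 kb and codes for 1558 to 1990 residues. Its relative Ptp4E (FBgn0004368; X, 4939128 to 4955916, plus strand) spans 16.8 kb and codes for 1607 to 1767 residues. Ptp69D (FBgn0014007; 3L, 12734945 to 12741568, plus strand) and Ptp52F (FBgn0034085; 2R, 16171112 to 16178307, minus strand) are compact, with exons over 78.0% and 63.8% of 6.62 and 7.20 kb. At its 3′ end, Ptp99A shares 1575 exon bases with CG2321 on the opposite strand, whose own level was between 0.273 and 1.48 FPKM. CG46244, on the strand of Lar, shares 8637 exon bases with it, so the values of Lar may hold reads of both. Whether the authors' counting used strand is not given in the sources used here. The locus deposited with the Ptp99A values ends at 29489265, past the release 115 end given above.

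**Figure D1:**
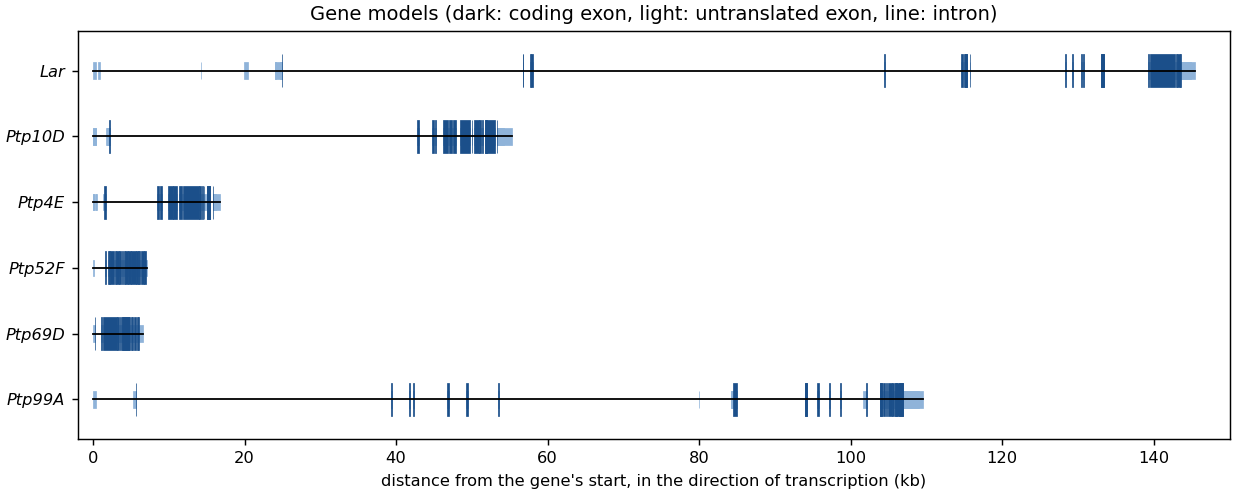
Gene models of the 6 members from Ensembl release 115, with distance from the start of the gene in kb on the x axis. Dark boxes are coding exons, light boxes untranslated exons and lines introns. Lar and Ptp99A run over 145.4 and 109.5 kb, while Ptp52F and Ptp69D take 7.20 and 6.62 kb.

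The sorted populations carried the markers of their labels. The summed level of 5 Kenyon cell markers (ey, dac, prt, Mef2, toy) was 887 and 1189 FPKM in pupal and adult KC, against 29.0 to 147 elsewhere, and that of 4 projection neuron markers (Oaz, acj6, vvl, C15) was 107 and 298 FPKM in PN, against 0.422 to 17.0 elsewhere. Exceptions were Mef2, at 112 FPKM in adult PN, toy, at 39.3 FPKM in pupal DN against 35.3 in pupal KC, and vvl, at 0.860 FPKM in pupal PN against 4.09 in pupal DN. All 7 glial markers were listed above 0 in every column, and their sum in KC, PN and DN was 174, 1588 and 665 FPKM in the pupa and 125, 60.6 and 218 FPKM in the adult. The sum of 4 neuron markers (elav, nSyb, brp, Syt1) was 198, 258 and 419 FPKM at 45 h APF and 1041, 3240 and 913 FPKM in the adult. Muscle markers (4 genes) summed to 173 FPKM in pupal DN and to between 0.227 and 6.61 elsewhere, and 3 hemocyte markers stayed between 0 and 0.614 FPKM. The part of these other cells in the levels below was not tested. The smallest steps between low values place the pupal KC, PN and DN libraries near 24.1, 29.1 and 32.1 M reads, which is an inference from the values. The depth behind the adult means was not inferred.

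Of the 6 genes, Lar had the highest level in all 6 columns and Ptp52F was close to 0 throughout. In pupal KC, PN and DN the 6 together summed to 16.9, 39.6 and 70.3 FPKM, and in the adult to 45.9, 158 and 52.3 FPKM. DN thus had the highest sum in the pupa and PN in the adult, and KC the lowest at both stages. Lar made up 35.6%, 47.4% and 34.9% of the sum in pupal KC, PN and DN and 40.7%, 56.4% and 45.6% in the adult. The share of Ptp4E was 23.1% and 25.1% in pupal and adult KC, against 4.48% to 13.6% in PN and DN. In a bulk sample, fewer cells that use a gene and less RNA of it per cell cannot be told apart.

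**Figure D2:**
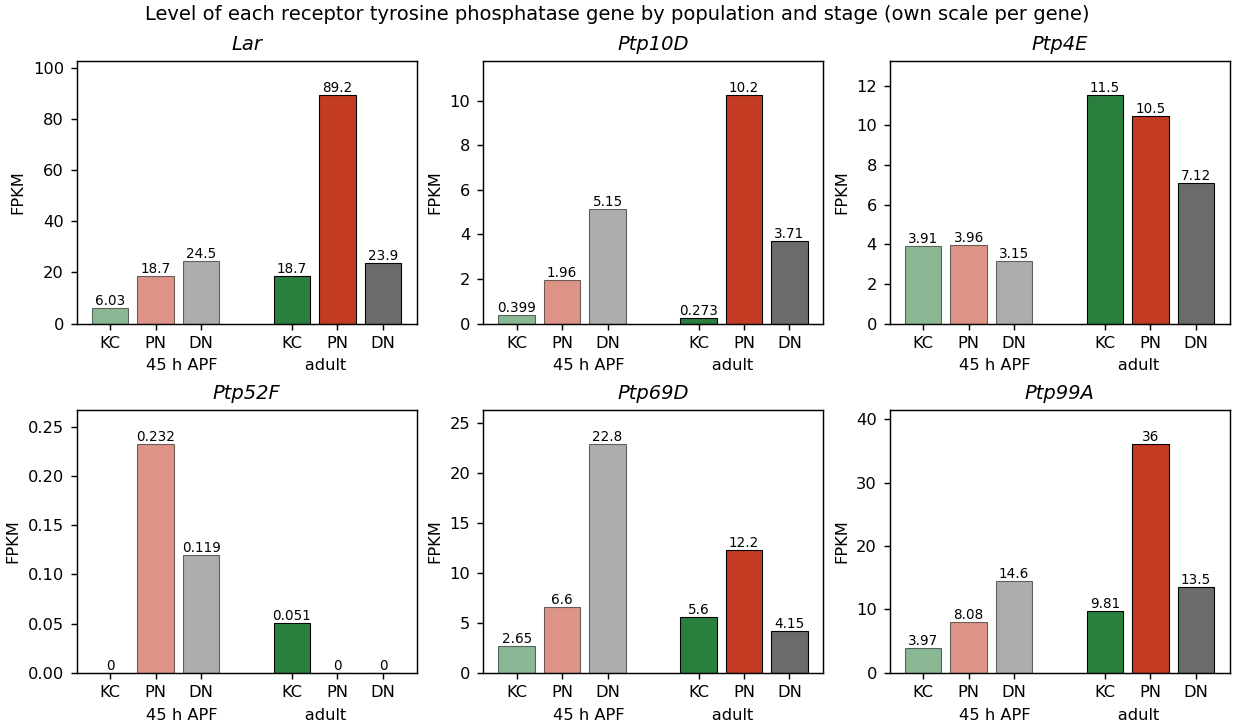
FPKM of each of the 6 members on the y axis, from 0 and on its own scale, with KC, PN and DN at 45 h APF (pale bars) and in the adult (dark bars) on the x axis. Pupal bars are single libraries and adult bars the authors' means, so there are no error bars. For Lar, Ptp10D and Ptp99A the adult PN bar is the tallest, for Ptp69D the pupal DN bar and for Ptp4E the adult KC bar.

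Lar, the receptor with immunoglobulin and fibronectin domains that binds heparan sulfate proteoglycans, was at 6.03, 18.7 and 24.5 FPKM in pupal KC, PN and DN and at 18.7, 89.2 and 23.9 FPKM in their adult counterparts. The pupal KC value was the lowest of the 6 and the adult PN value the highest. Counting error alone, from the inferred reads, gives exact Poisson 95% intervals of 5.67 to 6.41 FPKM for KC, 18.2 to 19.3 for PN and 23.9 to 25.2 for DN, which do not overlap. They leave out variation between animals and preparations, which cannot be measured here. On the log2(FPKM + 1) scale used for all differences below, which understates those of low genes, KC differed from PN by -1.49 at 45 h APF and by -2.20 in the adult. Against DN the KC difference was -1.86 in the pupa and -0.34 in the adult.

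Ptp99A, a receptor that acts with Ptp69D in motor axon guidance, had a pattern close to that of Lar at a lower level. It stood at 3.97, 8.08 and 14.6 FPKM in pupal KC, PN and DN and at 9.81, 36.0 and 13.5 FPKM in the adult. As for Lar, pupal KC was lowest and adult PN highest, with DN nearly level between the stages. KC minus PN was -0.87 at 45 h APF and -1.78 in the adult, and KC minus DN was -1.65 and -0.42. After each gene was centred on its own mean, the 6 values of Lar and Ptp99A differed by a root mean square of 0.26 on the log2 scale, the smallest distance among the 10 pairs of the 5 genes that passed the filter on low values (a mean of at least 1 FPKM).

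Ptp10D, the receptor for Sas that acts in repulsion from the midline, had the widest relative spread among those 5 genes as a ratio of FPKM. It was 37.5-fold from the lowest to the highest column against 3.65-fold for Ptp4E to 14.8-fold for Lar. On the log2(FPKM + 1) scale Lar had a wider range, from 2.81 to 6.49 against 0.35 to 3.49 for Ptp10D. The pupal levels of Ptp10D were 0.399 FPKM in KC, 1.96 FPKM in PN and 5.15 FPKM in DN. In the adult it was at 0.273, 10.2 and 3.71 FPKM. Both KC values were under 0.5 FPKM, while the other 4 columns held 1.96 FPKM or more. The pupal KC value corresponds to 66.8 to 81.2 reads, depending on the transcript, with a counting interval of 0.309 to 0.506 FPKM against 1.78 to 2.17 in PN and 4.86 to 5.46 in DN. The ratio of PN to KC was 4.93 in the pupa and 37.5 in the adult, and that of DN to KC 12.9 and 13.6. On the log2 scale KC minus PN was -1.08 and -3.14 and KC minus DN -2.14 and -1.89, so Ptp10D was the single member that stood 2-fold or more below both other populations in KC at both stages.

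Ptp4E, the close relative of Ptp10D known from tube formation in the trachea, did not share this pattern. Its levels were 3.91, 3.96 and 3.15 FPKM in pupal KC, PN and DN and 11.5, 10.49 and 7.12 FPKM in the adult. At both stages KC and PN were nearly level, with differences of -0.01 and 0.12 on the log2 scale, and DN was the lowest. The pupal counting intervals of KC (3.57 to 4.27 FPKM) and PN (3.65 to 4.29 FPKM) overlap, and that of DN (2.89 to 3.43 FPKM) lies below both. In KC, Ptp4E was thus at 9.81 times the level of Ptp10D in the pupa and 42.1 times in the adult, while in adult PN the pair were at 10.49 and 10.2 FPKM. The distance between the pair after centring, 1.25, was the widest of the 10.

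Ptp69D, a receptor with immunoglobulin domains that acts in photoreceptor and mushroom body axons, was at 2.65, 6.60 and 22.8 FPKM in pupal KC, PN and DN. In the adult it was at 5.599, 12.2 and 4.15 FPKM. The order of the populations thus differed between the stages, with DN highest in the pupa and lowest in the adult. DN was the population whose level differed most, by -2.21 on the log2 scale between adult and pupa, while KC and PN differed by 0.86 and 0.80 in the other direction. KC minus DN was -2.71 at 45 h APF, a difference at or below which 2.77% of kept genes lay, and 0.36 in the adult. KC minus PN was -1.06 and -1.004.

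Ptp52F, a receptor of embryonic motor and central axons, was listed at 0 FPKM in pupal KC, adult PN and adult DN, at 0.232 FPKM in pupal PN, 0.119 in pupal DN and 0.0510 in adult KC. It failed the filter on low values and enters none of the counts below, which are therefore over 5 of 6 members. For pupal KC, 3 reads would have given 0.0283 FPKM. The pupal PN and DN values correspond to about 29.6 and 16.8 reads, and their counting intervals, 0.156 to 0.332 and 0.0694 to 0.192 FPKM, overlap.

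The populations were next compared within each stage, where 1 column per group gives a size and no test. In the pupa, Lar, Ptp10D and Ptp69D, 3 of the 5 members, stood 2-fold or more lower in KC than in PN, where 18.1% of 8603 kept genes were, and 0 were that much higher (9.07% of genes). Ptp99A was 2.04-fold lower as a ratio of FPKM but at -0.87 on the log2 scale. Against DN, 4 of 5 were lower in KC by that size (19.9% of genes) and 0 higher (9.54%). Lar, Ptp10D and Ptp69D were lower in KC than in both (11.5% of genes), and 0 members were higher in KC than in both (5.44%) or higher in PN than in both KC and DN (5.63%). PN was below DN by that size for Ptp10D (-1.05) and Ptp69D (-1.65), where 9.36% of genes were, and above it for 0 (7.31%). The member medians were -1.06 for KC minus PN, -1.86 for KC minus DN and -0.78 for PN minus DN, and those of all kept genes 0.02, 0.02 and 0.03. With a pseudocount of 5 or with quantile normalization, 1 member, Lar, was left at least 2-fold apart for KC minus PN.

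Neuron markers ran in the direction of the member medians in both pupal comparisons with DN and against it for KC minus PN. The 4 neuron markers had a median of 0.19 for KC minus PN, -1.03 for KC minus DN and -0.95 for PN minus DN. Taken relative to that median, Lar, Ptp10D, Ptp69D and Ptp99A stood at -0.83, -1.11, -1.68 and -0.62 for KC minus DN and Ptp4E at 1.27. For PN minus DN the relative values lay between -0.70 (Ptp69D) and 1.20 (Ptp4E), and Lar (0.58) and Ptp99A (0.17) changed sign. For KC minus PN they were -1.67 for Lar, -1.27 for Ptp10D, -1.25 for Ptp69D, -1.05 for Ptp99A and -0.20 for Ptp4E. The sum of glial markers was 9.15 times as high in PN as in KC, in the direction of the members, and 2.39 times as high in PN as in DN, against it. Between DN and KC the glial sum was 665 against 174 FPKM, in the direction of the members. Muscle markers summed to 173 FPKM in DN against 6.61 in KC, also in that direction. The largest part of the glial sum was nrv2, at 100, 936 and 346 FPKM in pupal KC, PN and DN. The glial marker wrapper ran the other way, at 49.0, 14.1 and 43.0 FPKM. The part of any of these marker sets in the pupal differences was not tested further. Lar, Ptp10D, Ptp69D and Ptp99A had their highest pupal level in DN, and Ptp4E, nearly level with KC, in PN.

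In the adult, PN stood above both other populations for 4 of the 5 members. Lar, Ptp10D, Ptp69D and Ptp99A were each 2-fold or more higher in PN than in KC and DN, as were 11.2% of 8515 kept genes. For KC minus PN these 4 were lower by that size (19.9% of genes) and 0 higher (12.1%). Ptp69D was just past the cut, at -1.004. The count for KC minus PN was 3 with a pseudocount of 5 or with quantile normalization. For PN minus DN the same 4 were higher (16.9% of genes), with values of 1.86, 1.26, 1.36 and 1.35, and 0 were lower (9.49%). Between KC and DN, Ptp10D alone differed by that much, lower in KC as were 13.1% of genes, with 0 higher (8.39%), and the other 4 lay between -0.42 and 0.62. Ptp10D was also the 1 member lower in KC than in both (7.88% of genes), and 0 were higher in KC than in both (4.38%). Member medians were -1.78 for KC minus PN, -0.34 for KC minus DN and 1.35 for PN minus DN, against 0.01, 0.03 and -0.01 for all kept genes.

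Long genes and neuron markers also stood high in adult PN. With kept genes cut into 5 equal bins by exon length, all 5 members belong to the longest bin, whose median was 0.77 for PN minus DN and -0.64 for KC minus PN, and the neuron markers had medians of 1.86 and -1.65. Relative to that bin, 3 of 5 members were 2-fold apart for KC minus PN. PN minus DN relative to the bin was 1.08 for Lar, 0.48 for Ptp10D, 0.59 for Ptp69D, 0.58 for Ptp99A and -0.27 for Ptp4E, so that 1 of 5 remained 2-fold apart. Relative to the neuron markers, Lar was level with them (0.0033), Ptp10D, Ptp69D and Ptp99A were below them (-0.60, -0.49 and -0.50) and Ptp4E was at -1.35. For KC minus PN relative to the neuron markers, Ptp10D stood at -1.49, Lar at -0.55, Ptp99A at -0.13, Ptp69D at 0.65 and Ptp4E at 1.77. The 4 neuron markers were not alike for adult KC minus PN. The gene elav was at -0.12, and nSyb, brp and Syt1 were at -1.74, -1.77 and -1.56. Values relative to the median thus depend on which markers are taken. The part of length and of neuron marker level in the adult values was not tested further.

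**Figure D3:**
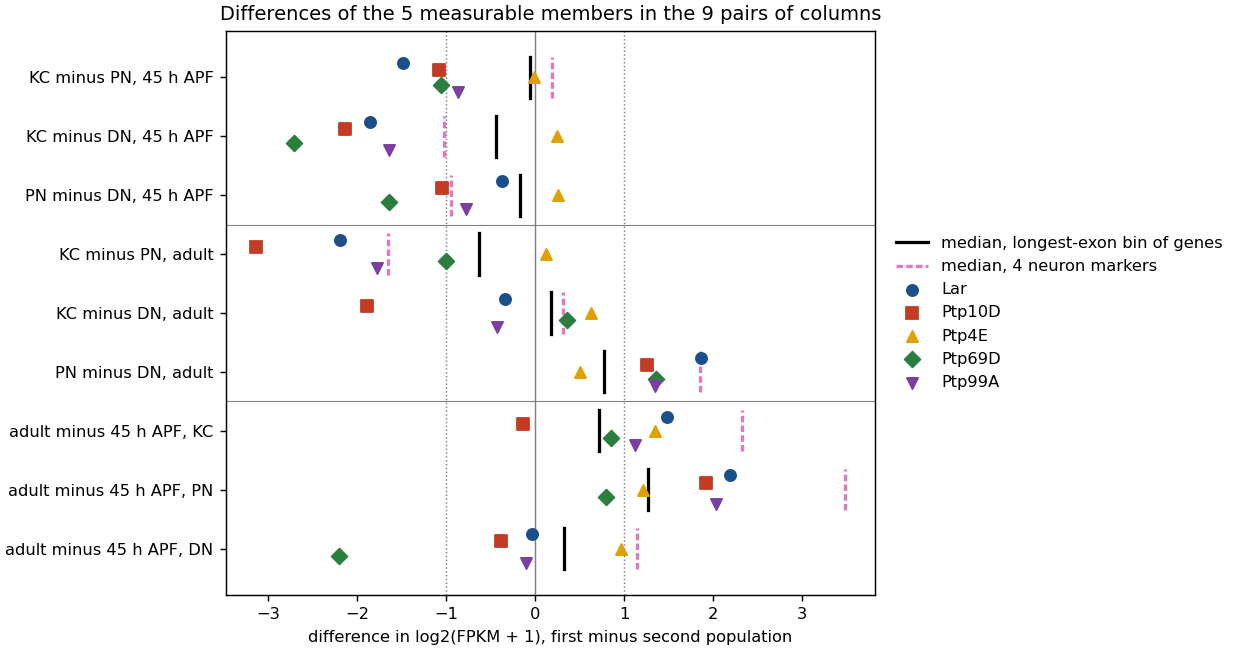
Differences in log2(FPKM + 1) on the x axis for the 5 members that passed the filter, in the 9 pairs of columns on the y axis. Black lines mark the median of the longest of 5 bins of genes by exon length, pink dashed lines the median of 4 neuron markers and dotted lines a 2-fold difference. Ptp4E (triangles) lies between -0.01 and 0.62 in the 6 cell type comparisons, while the other 4 genes lie left of 0 in all of the KC minus PN comparisons.

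Between the stages, more members stood higher in the adult in KC and PN than in DN. For all kept genes the median adult minus pupa difference was -0.26 in KC, -0.30 in PN and -0.17 in DN, so values are also read against that shift. In KC, Lar (1.49), Ptp4E (1.35) and Ptp99A (1.12) were at least 2-fold higher in the adult, where 17.9% of 8867 genes were, and 0 were lower (22.6%). In PN, Lar (2.19), Ptp99A (2.03), Ptp10D (1.92) and Ptp4E (1.21) were, beside 23.3% of genes, and 0 were lower (30.8%). In DN, Ptp69D was the sole member at least 2-fold apart, lower in the adult as were 21% of genes, with 0 higher (11.8%). Lar (-0.04) and Ptp99A (-0.10) were level in DN, and Ptp4E was at 0.97. Relative to the longest-exon bin, whose medians were 0.72 in KC and 1.27 in PN, no member was 2-fold apart in KC or PN, and Ptp69D in DN was at -2.53. The 4 neuron markers had stage medians of 2.32 in KC, 3.49 in PN and 1.147 in DN. Each median was above every member's difference in the same population. In DN the marker elav itself was at 0.14, below Ptp4E. The sum of glial markers was lower in the adult in all 3 populations. It was 1588 FPKM in pupal and 60.6 in adult PN, 174 and 125 in KC, and 665 and 218 in DN. The part of either marker set in the stage differences was not tested.

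Differences between PN and DN turned round between the stages for 4 members. For PN minus DN, Lar was at -0.37 in the pupa and 1.86 in the adult, Ptp10D at -1.05 and 1.26, Ptp69D at -1.65 and 1.36, and Ptp99A at -0.78 and 1.35. Shifts at least as large in either direction were found for 11.2%, 10.47%, 5.76% and 12.3% of 8867 genes. The neuron markers turned the same way, with a median of -0.95 in the pupa and 1.86 in the adult. Relative to them, no member went from below DN to above it: Lar was at 0.58 and 0.0033, Ptp10D at -0.11 and -0.60, Ptp69D at -0.70 and -0.49, and Ptp99A at 0.17 and -0.50. The sum of glial markers turned the opposite way, at 2.39 times as high in PN as in DN in the pupa and 0.278 times in the adult. The part of glial cells in the differences between PN and DN was not tested. With 1 column per population and stage the shift of the members itself could not be tested. KC minus PN, by contrast, kept its sign for all 4 genes, and its shift was -0.71 for Lar, -0.91 for Ptp99A, 0.06 for Ptp69D and -2.06 for Ptp10D.

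**Figure D4:**
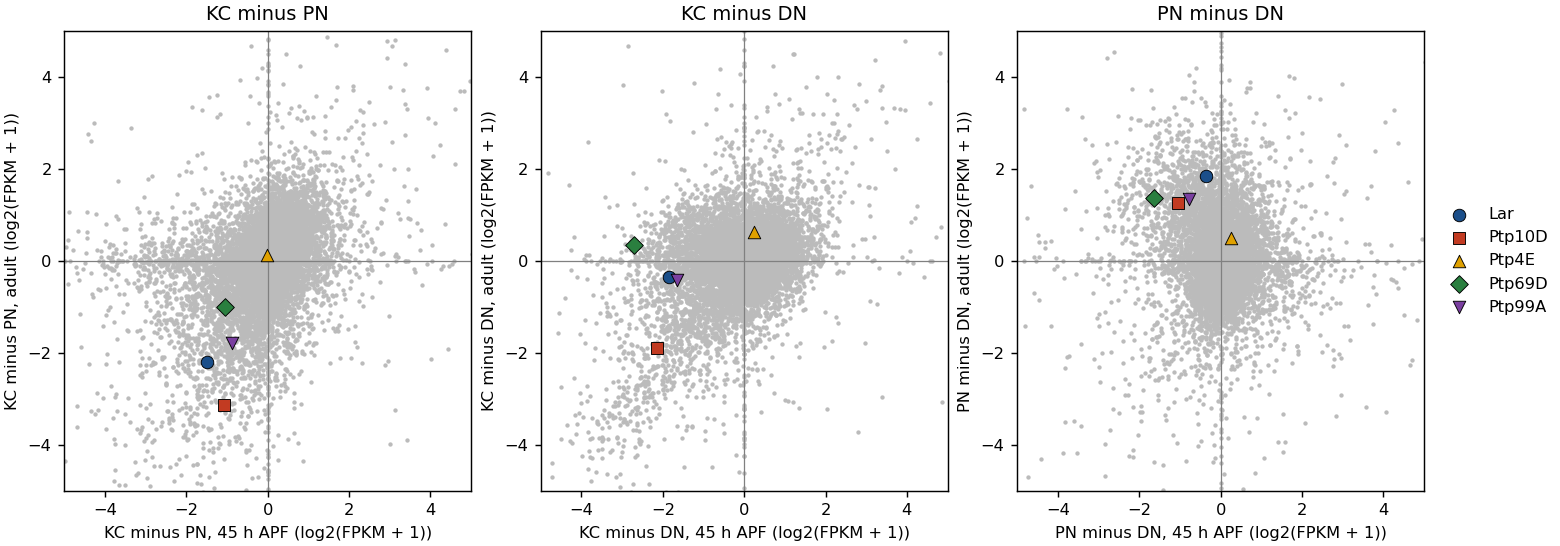
Cell type differences in log2(FPKM + 1) at 45 h APF on the x axis and in the adult on the y axis, for all 8867 kept genes (grey) and 5 members (symbols), with points beyond 5 on either axis left out. For KC minus PN, 4 members lie in the lower left. For PN minus DN the same 4 lie in the upper left, from -0.37 to -1.65 in the pupa and from 1.26 to 1.86 in the adult.

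Effects common to both stages were tested with limma on all 6 columns, with cell type and stage as additive terms over 8867 genes. Its p-values compare each effect with the change in cell type differences from pupa to adult, and say nothing of variation between animals. With Benjamini-Hochberg adjustment over all genes, 0 of the 5 members passed 0.05 in any contrast. For KC minus PN, Lar had a difference of -1.84 (SE 0.58, adjusted p = 0.247), lower at both stages. Ptp10D had -2.11 (SE 0.73, adjusted p = 0.273), also lower at both. At an unadjusted p under 0.05 these 2 were lower in KC, as were 8.8% of genes, with 0 higher (6.74%), while 0.485% of genes were lower and 0.304% higher after adjustment. Ptp99A had -1.32 (SE 0.59, adjusted p = 0.35), Ptp69D -1.03 (SE 0.84, adjusted p = 0.539) and Ptp4E 0.05 (SE 0.47, adjusted p = 0.966).

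For KC minus DN in the same limma fit, Ptp10D had -2.01 (SE 0.73, adjusted p = 0.381) and was the single member at an unadjusted p under 0.05, where 6.89% of genes were lower and 4.06% higher, and 0.462% and 0.293% after adjustment. The other 4 lay between -1.18 (Ptp69D) and 0.43 (Ptp4E). Without the pupal DN column Ptp69D was at 0.34 in that contrast, and without the adult DN column at -2.69. For PN minus DN all 5 had estimates between -0.14 and 0.74, 0 at an unadjusted p under 0.05, where 1.7% of genes were higher and 2.14% lower, and 0.0226% were higher and 0% lower after adjustment. Adult minus 45 h APF was 1.21 for Lar (SE 0.47, adjusted p = 0.104) and 1.18 for Ptp4E (SE 0.38, adjusted p = 0.0679). Both were higher at an unadjusted p under 0.05, as were 15.6% of all genes, with 8.03% after adjustment. No member was lower at that unadjusted threshold, as 27.4% of all genes were, with 17% after adjustment. The median of all genes in that contrast was -0.23. With upper quartile scaling, Ptp4E was at 1.41 and passed (limma adjusted p = 0.0489).

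Genes around these receptors were described from lists chosen by function. Among the ligands and co-receptors, Sdc was at 22.9, 28.5 and 161 FPKM in pupal KC, PN and DN and at 65.5, 172 and 87.1 FPKM in the adult. Its highest pupal value was in DN and its highest adult value in PN, as for Lar. The glypican gene dlp was near 10 FPKM in the pupa (8.56, 10.1 and 10.05) and differed in the adult, with 20.4 FPKM in KC against 0.968 in PN and 1.98 in DN. The other glypican gene, dally, was at 1.72, 12.8 and 14.96 FPKM in the pupa and at 2.17, 171 and 17.4 in the adult. The Ptp10D ligand gene sas was listed at 0 in 4 columns and at 0.0701 FPKM in pupal DN and 0.224 in adult PN. None of the 3 that were tested passed limma in any contrast. Of all genes, 8.03% passed as higher and 17% as lower in the adult, and at most 0.485% in either direction between cell types.

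Of 9 genes for cytoplasmic partners of Lar, limma called trio and CASK higher in the adult and none between cell types. Of all genes, 8.03% were called higher in the adult, and at most 0.485% in either direction between cell types. The gene trio, an exchange factor for Rac, was at 34.0, 10.6 and 12.2 FPKM in pupal KC, PN and DN and at 134, 105 and 23.5 in the adult (adult minus pupa 2.01, SE 0.46, limma adjusted p = 0.0293). CASK, a scaffold at synapses, was at 10.2, 11.9 and 21.5 FPKM and at 62.2, 378 and 52.0 (2.87, SE 0.66, limma adjusted p = 0.0295). Liprin-alpha, the scaffold that binds the intracellular part of Lar, was at 5.55, 0.598 and 7.404 FPKM in the pupa and 17.6, 24.4 and 11.3 in the adult. Liprin-beta was at 43.6, 32.7 and 15.3 FPKM and then 25.6, 8.49 and 7.62, with KC highest at both stages, and Liprin-gamma lay between 22.4 and 42.1 in all columns.

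The Lar substrate gene ena, an actin regulator, was at 15.5, 21.8 and 49.7 FPKM in pupal KC, PN and DN and 14.8, 24.9 and 14.3 in the adult. Its antagonist, the kinase gene Abl, was at 12.1, 15.3 and 16.3 FPKM and then 28.0, 45.3 and 20.9. The synaptic gene RhoGAP100F was at 2.14, 2.41 and 4.64 FPKM and then 5.76, 20.3 and 3.8, and the profilin gene chic at 257, 287 and 600 FPKM and then 276, 275 and 127. At least 2-fold, 6 of the 9 partners were higher in adult PN than in adult DN and 0 lower (16.9% and 9.49% of all kept genes), with a list median of 1.08 beside 1.86 for the neuron markers and 0.77 for the longest-exon bin. In the pupa 1 of 9 was higher in PN than in DN and 3 lower (7.31% and 9.36% of all kept genes), with a median of -0.73 beside -0.95 for the neuron markers.

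**Figure D5:**
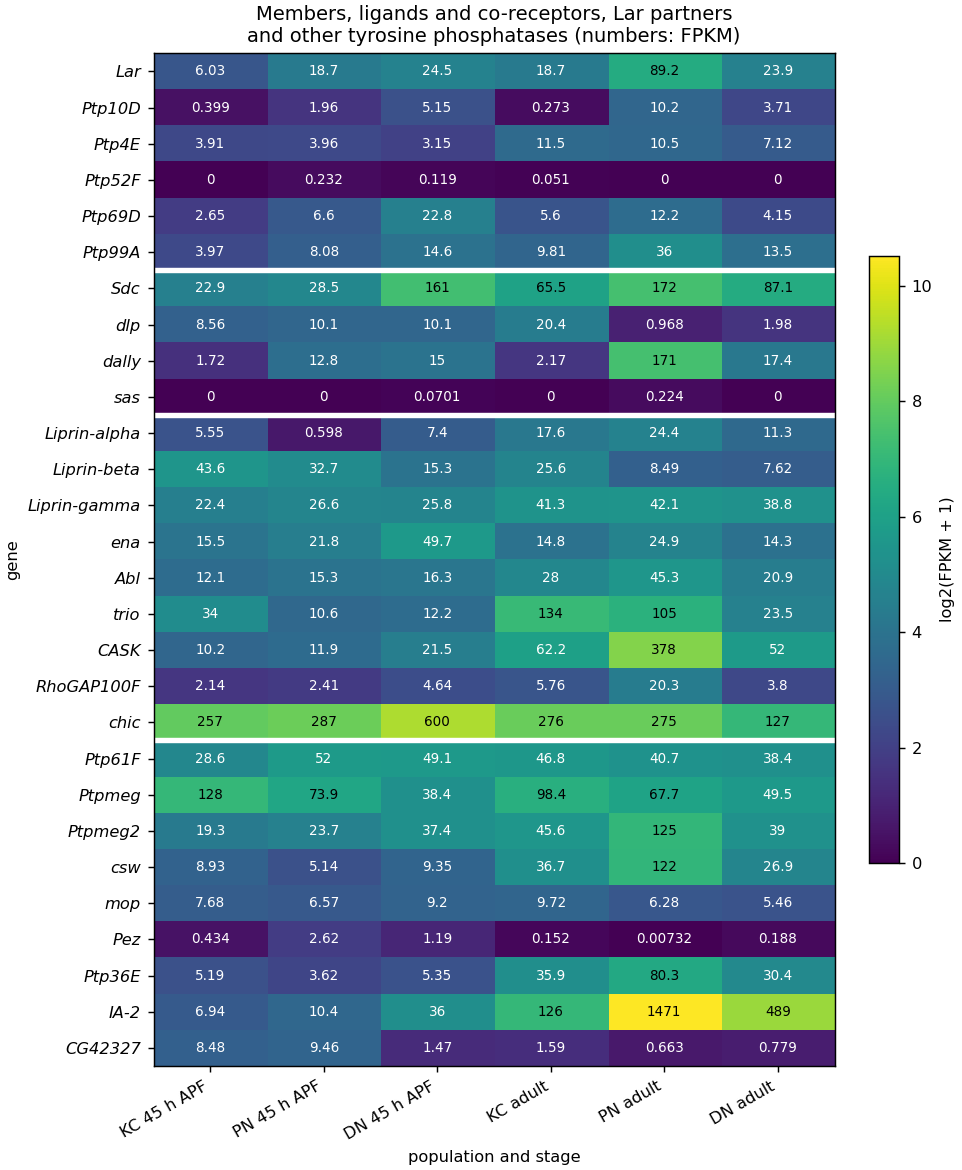
Levels of the 6 members, 4 ligands and co-receptors, 9 Lar partners and 9 other tyrosine phosphatases (y axis, in blocks) in the 6 columns (x axis), coloured by log2(FPKM + 1) and printed as FPKM. In adult PN, Lar (89.2), Sdc (172), dally (171) and CASK (378) each have their highest value.

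Of the other 9 tyrosine phosphatase genes on the list, receptor-like and cytoplasmic, 8 were in the fit. Between cell types 0 passed limma, as did at most 0.485% of all genes in either direction. In the adult 3 were higher (8.03% of all genes). These were IA-2, a receptor-like phosphatase of secretory vesicles (4.91, SE 0.64, limma adjusted p = 0.00936), Ptp36E (3.01, SE 0.45, limma adjusted p = 0.0119) and csw, the SHP-type phosphatase gene corkscrew (2.56, SE 0.59, limma adjusted p = 0.0295). IA-2 was at 6.94, 10.4 and 36.0 FPKM in pupal KC, PN and DN and at 126, 1471 and 489 in the adult. Adult PN minus DN was at least 2-fold higher for 4 of 8 on this list and lower for 0 (16.9% and 9.49% of all kept genes), with the neuron markers at a median of 1.86. Ptpmeg, a cytoplasmic phosphatase gene known from mushroom body axons, was highest in KC at both stages, at 128, 73.9 and 38.4 FPKM and then 98.4, 67.7 and 49.5.

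Of 24 tyrosine kinase genes in the fit, 6 were lower in the adult (dnt, drl, Nrk, otk, otk2 and Ror) and Alk was higher, beside 17% of all genes lower and 8.03% higher. Nrk, a receptor kinase, was the most reduced (-3.26, SE 0.28, limma adjusted p = 0.00417), followed by otk, a plexin and Wnt co-receptor (-2.84, SE 0.32, limma adjusted p = 0.00718). The Src kinase gene Src64B was higher in KC than in DN (5.54, SE 0.77, limma adjusted p = 0.046), at 644 against 39.7 FPKM in the pupa and 1637 against 11.01 in the adult. Of 11 adhesion receptors linked to these phosphatases by genetics or shared pathways, Fas1 was lower in KC than in PN (-2.95, SE 0.30, limma adjusted p = 0.0212) and higher in the adult, and 8 of 11 stood 2-fold or more below PN in pupal KC, among them Fas1, fra and stan, with gogo higher (18.1% and 9.07% of all kept genes).

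The genes whose 6 centred values lay nearest to each member were ranked by the root mean square difference on the log2 scale, among 8867 genes. For Lar these were ben (0.20), Parp (0.20) and CG42613 (0.21), and for Ptp99A they were Mitf (0.14), ben (0.14) and Parp (0.15). The gene ben, a ubiquitin-conjugating enzyme known from synaptic connectivity of the giant fibre, was at 29.1, 55.0 and 87.4 FPKM in pupal KC, PN and DN and 70.6, 270.3 and 78.3 in the adult. Nearest to Ptp10D were CG9134 (0.21), Glycogenin (0.25) and l(2)41Ab (0.26), and nearest to Ptp4E were Usf (0.11), tay (0.12) and CR45170 (0.12). Nearest to Ptp69D were Myo81F (0.22), Sema-2a (0.26) and Pak3 (0.27). Sema-2a, a secreted semaphorin, was at 31.1, 67.1 and 172 FPKM in the pupa and 49.5, 74.6 and 28.3 in the adult, with DN highest in the pupa and lowest in the adult as for Ptp69D. With 6 values per gene many genes lie close, and no test was made of this likeness.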

How the data were processed

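The authors deposited FPKM values, and per the submitters' processing notes TopHat, Cufflinks and the dm6 build were used, without versions. Of 16859 lines, 5 had a date for a gene name and were left out. Values were analysed as log2(FPKM + 1). The filter on low values asked for a mean of 1 FPKM or more, over the columns of a stage for comparisons within it (8603 and 8515 genes) and over all 6 for other comparisons (8867). limma 3.58.1 in R 4.3.3, with a mean-variance trend, left 2 residual degrees of freedom, to which its prior added 4.14. It was tested on simulated data. Exon lengths and coordinates are from Ensembl release 115 (16699 genes matched). Pupal depth was inferred from single-transcript genes, whose low values then lie within 0.1 of a whole number of reads in 85.1% to 88.8% of cases, with an effective length 200 bases under the transcript's. Intervals use the shortest transcript. Named genes are all members, the 3 nearest genes of each, listed ligands and Lar partners, and list genes called or furthest apart. Members and lists were chosen with earlier results of these data known. Alternatives were other pseudocounts, filters and scalings, no trend, each column left out, and values relative to the longest-exon bin or to the neuron markers. Sequences were not used here. The results of 1 further gene list are not reported here.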

Additional observations from a re-analysis of the deposited data

Results flagged for a closer look

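Several members differed in opposite directions under the same contrast in another group, by at least 0.5 on the log2(FPKM + 1) scale each way. None of these differences was tested, since each group has 1 column. For PN minus DN, Ptp10D went from -1.05 at 45 h APF to 1.26 in the adult, a shift of 2.31, and Ptp99A from -0.78 to 1.35, a shift of 2.13. Ptp69D went from -1.65 to 1.36 for PN minus DN, a shift of 3.01, which is also the gap between its stage differences in PN (0.80) and DN (-2.21). The gap between the stage differences of Ptp69D in KC (0.86) and DN was 3.07.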

How the results depend on the processing

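Counts of members at least 2-fold apart depended on the scale. With a pseudocount of 5 the count of members apart was 1 for KC minus PN and 1 for PN minus DN at 45 h APF, 0 for KC minus DN and 2 for PN minus DN in the adult, and 1 for the stages in KC. With a pseudocount of 0.1 it was 2 for the stages in DN. A filter of 5 FPKM, which leaves out Ptp10D at both stages and Ptp4E in the pupa, gave 1 for PN minus DN in the pupa and 0 for KC minus DN in the adult. Quantile normalization gave 1 for KC minus PN and 1 for PN minus DN in the pupa, 1 for the stages in KC and 2 in DN, and upper quartile scaling 2 in DN. Relative to the longest-exon bin the counts were 1 for PN minus DN in the pupa, 1 in the adult, and 0 for the stages in KC and 0 in PN, and signs turned between the stages in PN for Ptp4E (-0.06) and Ptp69D (-0.47), in adult PN minus DN for Ptp4E (-0.27) and in pupal KC minus PN for Ptp4E (0.043).

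Values were also taken relative to the neuron markers, a choice made after seeing the data. The count was then 3 for pupal KC minus DN (Ptp10D and Ptp69D, lower in KC, and Ptp4E, higher in KC), against 4 without that step, all lower in KC. For pupal KC minus PN it was 4 (Lar, Ptp10D, Ptp69D and Ptp99A, lower in KC). For pupal PN minus DN it was 1 (Ptp4E, higher in PN). For adult KC minus PN it was 2 (Ptp10D, lower in KC, and Ptp4E, higher in KC). For adult PN minus DN it was 1 (Ptp4E, lower in PN). Without that step Ptp4E was not 2-fold apart in any of these comparisons. For the stages in DN it was 4 (Lar, Ptp10D, Ptp69D and Ptp99A, lower in the adult). Signs turned in pupal PN minus DN for Lar (0.58) and Ptp99A (0.17), in adult KC minus PN for Ptp69D (0.65), and in adult PN minus DN for Ptp10D (-0.60), Ptp4E (-1.35), Ptp69D (-0.49) and Ptp99A (-0.50). Between the stages they turned in KC for Lar (-0.84), Ptp4E (-0.97), Ptp69D (-1.46) and Ptp99A (-1.20), in PN for Lar (-1.30), Ptp10D (-1.56), Ptp4E (-2.27), Ptp69D (-2.69) and Ptp99A (-1.46), and in DN for Ptp4E (-0.18). The cause was not tested.

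In limma, upper quartile scaling gave 1 member past the threshold between the stages (Ptp4E, 1.41) and turned Ptp69D to 0.042. With 1 column left out at a time, a cell type kept a single column and 1 residual degree of freedom was left, so only sizes are given. Estimates that changed sign then ranged from -0.076 to 0.18 for Ptp4E in KC minus PN, from -2.69 to 0.34 for Ptp69D in KC minus DN, and in PN minus DN from -0.19 to 1.68 for Lar, -0.99 to 1.19 for Ptp10D, -1.66 to 1.38 for Ptp69D and -0.55 to 1.13 for Ptp99A. Between the stages they ranged from -0.26 to 0.89 for Ptp10D and from -0.70 to 0.83 for Ptp69D. No paired analysis was possible because the adult columns are means and carry no replicate number. Without replicates, no difference within a stage has an error.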

Other observations

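Inside the span of Lar, on the opposite strand, lies the noncoding gene CR44978, whose exons share 0 bases with those of Lar. In pupal KC, PN and DN it was at 9.003, 137 and 107 FPKM, and then at 2.36, 91.9 and 30.8 FPKM in the adult. Both KC values were the lowest of their stage. Another noncoding gene there, CR44979, was between 0 and 0.944 FPKM. In an intron of Ptp99A, CR44022 was at 0.141, 0.116 and 0.422 FPKM in pupal KC, PN and DN and at 4.25, 6.81 and 1.96 FPKM in the adult. The annotated gene scw, in an intron of Lar, was listed between 0 and 0.108 FPKM.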
